A study of Mus musculus with 12 samples.

Results

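The transcription factors that divide the CD4 and CD8 lineages were examined in cultured mouse CD8 T cells: the RUNX family (Runx1, Runx2 and Runx3), their shared partner subunit Cbfb, the CD4 lineage factor Zbtb7b, which encodes ThPOK, and the genome organizer Satb1. These 6 genes were taken by symbol from the deposited table of read counts, which held 55335 genes, and each had 1 row. The 12 libraries came from spleen CD8 T cells of OT-I mice on a C57BL/6 background, whose T cells carry a transgenic receptor for an ovalbumin peptide. Batf3 cells had received a retroviral vector with Batf3, which encodes a basic leucine zipper factor of the AP-1 family, and control cells the same procedure with an empty vector. Sorted cells were then cultured for 6 h with plate-bound antibody to CD3e plus antibody to CD28, each at 1 µg/ml (stimulated), or with 100 ng/ml of the cytokine IL-15 (non-stimulated). Batf3 stimulated, control stimulated, Batf3 non-stimulated and control non-stimulated cells had 3 libraries each. The labels call the replicates technical, so standard deviations, standard errors and p-values measure technical spread only. The labels name IL-15 for the non-stimulated cultures alone, and so the cultures may differ in that cytokine too. All cells came from the CD8 pool of the spleen, so no value here describes lineage choice in the thymus.

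RUNX proteins bind DNA through a Runt domain, and each needs CBF-beta, the product of Cbfb, to bind it firmly. In developing T cells RUNX1 and RUNX3 hold the Cd4 gene silent, RUNX3 with CBF-beta represses Zbtb7b in cells that become CD8 T cells, and ThPOK in turn opposes the RUNX programme in cells that become CD4 T cells. SATB1 folds chromatin in thymocytes, acts on enhancers of both sets of lineage genes, and keeps Pdcd1, the gene of the PD-1 receptor, low in activated CD8 T cells.

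Total counts lay between 14211564 and 14468231 per library, and 3 counts, the floor used here, stood for 0.191 to 0.229 CPM (CPM being counts scaled to a common library size with TMM factors). Batf3 itself, the check of the labels, averaged 427 ± 11.9 CPM in Batf3 stimulated and 18.4 ± 0.735 CPM in control stimulated cells, and 470.4 ± 3.68 CPM in Batf3 non-stimulated and 6.77 ± 0.833 CPM in control non-stimulated cells (SD, n = 3). CD8 T cell markers summed to at least 2322 CPM in every library. Lists for B, NK, myeloid, granulocyte and erythroid cells summed to at most 11.7 CPM, with Ms4a1, Ncr1, Lyz2, S100a8 and Hbb-bs at 0 in all 12 libraries. The dendritic cell list summed to between 15.9 and 23.0 CPM, mostly from Xcr1 and Zbtb46, with Siglech at 0. The myeloid sum came mostly from Itgam. Itgam averaged 8.97 CPM in Batf3 and 4.95 CPM in control stimulated cells, and 4.67 and 1.90 CPM in Batf3 and control non-stimulated cells. Which cells held these RNAs was not tested.

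The 3 Runx genes share a feature at their distal start sites that the choice of genes did not use. It was noticed on reading the RefSeq promoter windows (GRCm38.p6, from 250 bases before to 50 after each start), of which the 6 genes had 13. The longest run of bases common to the distal windows of Runx1, Runx2 and Runx3 was 18 bases long. It holds a pair of RUNX cores, which read ACCACA here and TGTGGT on the other strand. The lines below show it in capitals with 5 bases on either side, 5′ to 3′ on the strand of the gene.
Runx1, chr16:92826026-92826053, minus strand: ataaaCAACCACAGAACCACAAGttggg
Runx2, chr17:44814584-44814611, minus strand: acaaaCAACCACAGAACCACAAGtgcgg
Runx3, chr4:135120504-135120531, plus strand: tccctCAACCACAGAACCACAAGgccag

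The run lay at bases 27 to 44 after the start in Runx1 and 22 to 39 in Runx2, in both cases within the first exon of GENCODE M21 transcripts. In Runx3 it lay 136 to 119 bases before the start, outside any exon of that annotation. Among 32817 windows of all genes, 4 held this run (0.01219%), the fourth being that of Gm16225, a noncoding gene whose window overlaps the Runx3 one. The run was defined from the Runx windows themselves, so its presence in them is no test. A single RUNX core, a much shorter string, occurred on either strand in 16.76% of all windows. The Runx3 bases before the start are given because they hold the run in front of the gene, with RUNX cores in capitals.
Runx3, chr4:135120395-135120644, plus strand: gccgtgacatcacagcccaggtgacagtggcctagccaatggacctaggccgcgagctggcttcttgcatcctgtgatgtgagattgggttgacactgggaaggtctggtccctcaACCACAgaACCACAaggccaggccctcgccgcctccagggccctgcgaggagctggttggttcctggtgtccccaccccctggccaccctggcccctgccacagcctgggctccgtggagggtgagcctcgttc

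Zbtb7b had 1 RUNX core, TGTGGT, in its second window, starting 89 bases before an internal start that lies in an intron of the longer transcripts. It is shown because Zbtb7b is a gene that RUNX complexes repress.
Zbtb7b, chr3:89387672-89387921, minus strand: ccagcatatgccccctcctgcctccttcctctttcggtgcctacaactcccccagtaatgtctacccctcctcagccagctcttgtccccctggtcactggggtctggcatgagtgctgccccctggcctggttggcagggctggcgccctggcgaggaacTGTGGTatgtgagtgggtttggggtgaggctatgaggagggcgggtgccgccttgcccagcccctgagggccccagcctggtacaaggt

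Sites for BATF-family dimers were searched in the same windows. The AP-1 letters TGANTCA occurred in 7.813% of all windows on either strand, and the CRE letters TGACGTCA in 1.792%. The AP-1 and IRF composite elements, which contain the AP-1 letters, occurred in 0.1188% (with a spacer) and 0.1249% (without one). None of the 13 windows of the 6 genes held any of these, which says only that the letters are not in these windows. No binding data were used here.

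Runx1 (ENSMUSG00000022952, chromosome 16, 92601466 to 92826149, minus strand, GRCm38), the family member with roles in blood stem cells, early thymocytes and CD4 T cells, changed most with the vector. In stimulated cells it had 22.2, 21.4 and 23.5 CPM in Batf3 libraries, against 8.68, 9.22 and 9.52 CPM in control libraries. In non-stimulated cells it had 9.37, 7.69 and 9.999 CPM in Batf3 libraries, against 2.33, 3.05 and 2.98 CPM in control libraries. The Batf3 libraries lay above the control libraries in both cultures without overlap, and the libraries of Batf3 non-stimulated cells overlapped those of control stimulated cells.

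Runx1 rose with the vector by 1.29 ± 0.11 on the log2 scale in stimulated cells (SE, adjusted p = 1.74e-16) and by 1.69 ± 0.16 in non-stimulated cells (adjusted p = 3.6e-15), in the quasi-likelihood test of edgeR with Benjamini-Hochberg adjustment over 15702 genes. The change exceeded that of 98.1% of all tested genes in stimulated and of 99.1% in non-stimulated cells. Bulk libraries cannot tell more cells with Runx1 RNA from more Runx1 RNA per cell, and this holds for every gene here. Stimulation raised Runx1 by 1.31 ± 0.10 with the Batf3 vector and by 1.71 ± 0.16 with the control vector. The Batf3 effect in stimulated cells minus that in non-stimulated cells is the vector by stimulation interaction. For Runx1 it was -0.40 ± 0.19 and was not called (edgeR adjusted p = 0.127, 95% interval -0.78 to -0.02). Gene counts do not separate the transcripts of the distal and proximal start sites.

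Runx2 (ENSMUSG00000039153, chromosome 17, 44495987 to 44814797, minus strand), known as the master factor of bone formation and also found in memory CD8 T cells, followed the culture far more than the vector. It had 141, 137 and 135 CPM in Batf3 stimulated, 126, 131 and 139.8 CPM in control stimulated, 52.3, 52.2 and 49.9 CPM in Batf3 non-stimulated and 44.4, 44.8 and 44.99 CPM in control non-stimulated libraries. All stimulated libraries stood above all non-stimulated ones, and the vectors overlapped only in stimulated cells. Stimulation raised it by 1.42 ± 0.05 with the Batf3 vector and 1.56 ± 0.05 with the control vector (log2 ± SE, edgeR adjusted p = 3.41e-38 and 1.13e-39). The vector raised it by 0.20 ± 0.06 in non-stimulated cells (adjusted p = 6.82e-04). In stimulated cells the difference was 0.06 ± 0.04 (adjusted p = 0.303, 95% interval -0.03 to 0.15). The interaction was -0.15 ± 0.07 and was not called (adjusted p = 0.103, 95% interval -0.29 to -0.0037).

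Runx3 (ENSMUSG00000070691, chromosome 4, 135120652 to 135177990, plus strand), the RUNX factor that defines the cytotoxic lineage, went up with the vector and down with stimulation. Its libraries read 113, 107 and 113 CPM in Batf3 stimulated, 81.2, 84.2 and 84.9 CPM in control stimulated, 159.8, 151 and 157 CPM in Batf3 non-stimulated and 114, 118 and 120.3 CPM in control non-stimulated cells. In descending order the groups were Batf3 non-stimulated, control non-stimulated, Batf3 stimulated and control stimulated, and no neighbours overlapped.

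The vector raised Runx3 by 0.41 ± 0.05 in stimulated cells (edgeR adjusted p = 1.05e-12) and by 0.41 ± 0.04 in non-stimulated cells (adjusted p = 2.64e-14). It fell with stimulation by 0.49 on the log2 scale under either vector (SE 0.04 with Batf3 and 0.05 with control). The interaction was 0.00 ± 0.06 with a 95% interval of -0.12 to 0.13, so a difference between the effects in the 2 cultures beyond that range was not found.

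Cbfb (ENSMUSG00000031885, chromosome 8, 105170674 to 105217989, plus strand), the subunit that all RUNX factors share, differed little between groups, with means of 154 to 169 CPM. It had 164, 154 and 145 CPM in Batf3 stimulated, 169, 170.4 and 168 CPM in control stimulated, 157, 162 and 142 CPM in Batf3 non-stimulated and 148, 148 and 167 CPM in control non-stimulated libraries. Outside control stimulated cells its coefficient of variation was 6.22 to 7.12%, against 2.04 to 2.19% from counting alone. Only control stimulated libraries stood apart, above all others, by little.

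For Cbfb the vector gave -0.13 ± 0.05 in stimulated cells (log2 ± SE, edgeR adjusted p = 0.0642, 95% interval -0.24 to -0.02). This was not called here but was called under 10 of 19 alternatives. In non-stimulated cells Cbfb changed with the vector by -0.01 ± 0.05 (adjusted p = 0.936, 95% interval -0.11 to 0.10). Stimulation raised it by 0.13 ± 0.05 in control cells (adjusted p = 0.0294). That call was lost without control non-stimulated replicate 1 or 2 (adjusted p = 0.113 and 0.114), without control stimulated replicate 1 or 2 (adjusted p = 0.0548 and 0.06) and with the replicate number as a block (adjusted p = 0.0546), and it turned to -0.058 with library sizes alone. The share of counts from mitochondrial genes was 1.96, 1.89 and 1.64% in the Batf3 stimulated libraries in the order above and 1.96, 2.03 and 1.98% in the control stimulated ones, and its part in the Cbfb values was not tested.

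**Figure D1:**
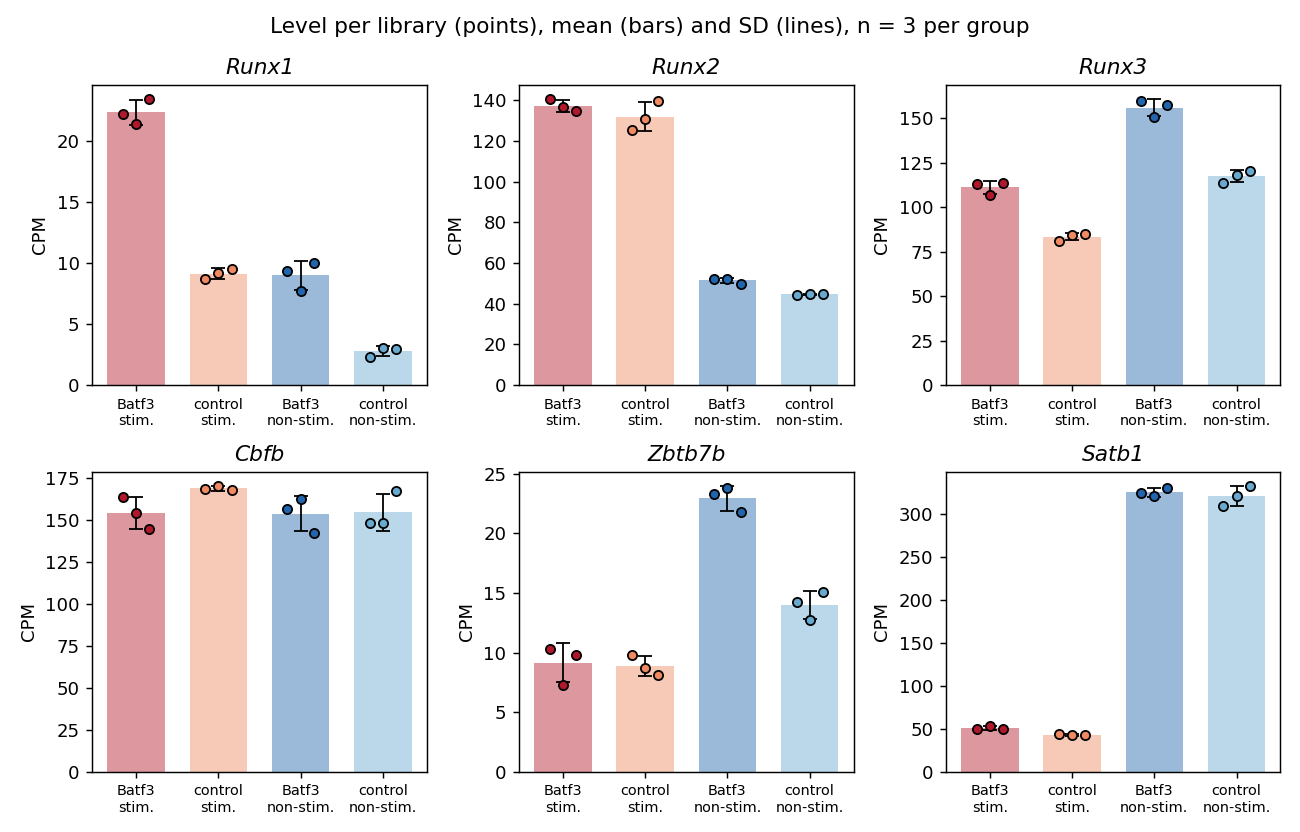
Level of each of the 6 genes in CPM on a linear axis, with a point per library, the mean of 3 libraries as a bar and the SD as a line, for Batf3 and control cells in stimulated and non-stimulated cultures. Runx1 and Runx3 are higher with Batf3 in both cultures and Zbtb7b in non-stimulated cells, and Satb1 stands at 309 CPM or more in every non-stimulated library.

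To compare levels between genes, CPM were divided by the length of all annotated exons of the gene, giving CPM per kilobase. On that scale Runx3 led the family, with mean levels of 22.2, 16.7, 31.2 and 23.5 in Batf3 stimulated, control stimulated, Batf3 non-stimulated and control non-stimulated cells. Runx2 had mean levels of 15.6, 14.9, 5.83 and 5.06 in the same order, and Runx1 had 1.86, 0.760, 0.750 and 0.232. Runx3 was thus the most abundant RUNX gene per length in every group, and Runx1 the least. In CPM, before division by length, Runx2 stood above Runx3 in stimulated cells. The means were 137 against 111 CPM with Batf3 and 132 against 83.4 CPM with the control vector. The order of Runx2 and Runx3 in stimulated cells thus depends on whether CPM are divided by length.

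The share of Runx1 in the summed per-length level of the 3 genes was 4.70 ± 0.171% in Batf3 stimulated cells and 2.35 ± 0.0276% in control stimulated cells (SD, n = 3). It was 1.99 ± 0.226% in Batf3 non-stimulated cells and 0.804 ± 0.0983% in control non-stimulated cells. The Runx2 share was 39.2 ± 0.876% in Batf3 and 46.1 ± 0.847% in control stimulated cells, and 15.5 ± 0.624% in Batf3 and 17.6 ± 0.352% in control non-stimulated cells. Runx3 made up 56.1 ± 0.728% in Batf3 and 51.5 ± 0.856% in control stimulated cells, against 82.6 ± 0.399% in Batf3 and 81.6 ± 0.265% in control non-stimulated cells. Batf3 cells thus had larger Runx1 and Runx3 shares and a smaller Runx2 share in both cultures, with no overlap between libraries.

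The summed per-length level of the 3 genes was 39.6 ± 0.901 CPM per kilobase in Batf3 and 32.4 ± 1.21 in control stimulated cells, and 37.7 ± 1.01 in Batf3 and 28.7 ± 0.742 in control non-stimulated cells (SD, n = 3). Set against Cbfb per length, the sum came to 0.897 ± 0.0550 of its level in Batf3 and 0.667 ± 0.0275 in control stimulated cells, and 0.856 ± 0.0707 in Batf3 and 0.648 ± 0.0345 in control non-stimulated cells. The Batf3 libraries were above the control libraries in both measures. With 3 libraries against 3, each of these differences gave the smallest value an exact two-sided permutation test can reach, p = 0.1 (0.114 after Benjamini-Hochberg adjustment over 24 comparisons), so none can pass a threshold of 0.05. Exon unions differ from the transcripts in use, and the share of Runx1 depends on the length chosen.

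**Figure D2:**
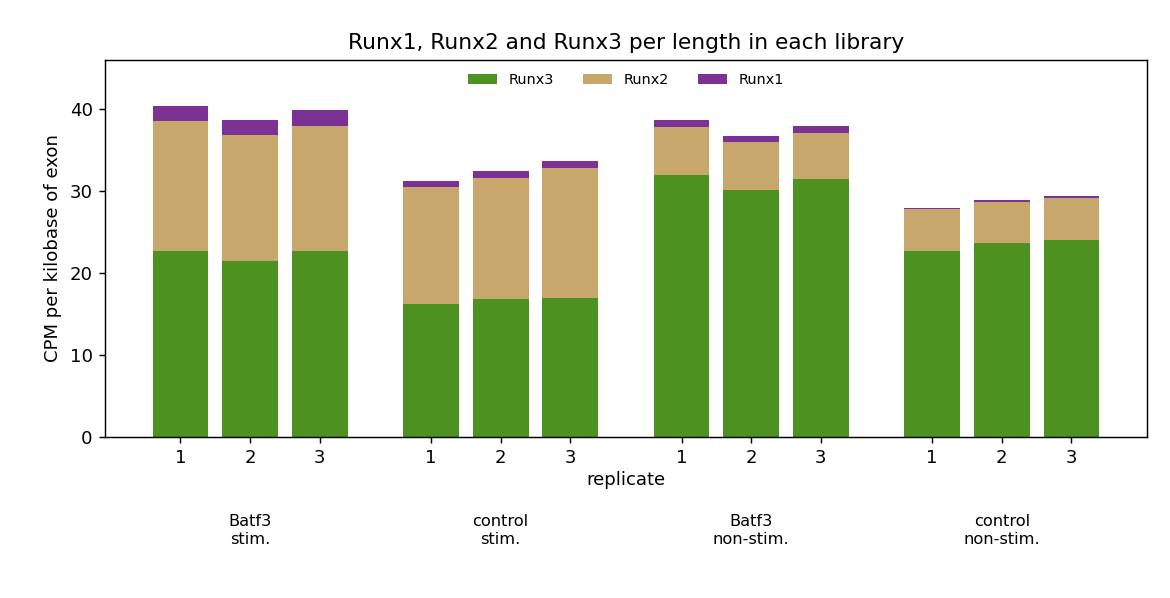
Stacked levels of Runx3, Runx2 and Runx1 in CPM per kilobase of exon in each of the 12 libraries, by group and replicate. The Runx3 part is the largest in every library, the Runx2 part grows with stimulation, and the stacks of Batf3 cells are taller than those of control cells in the same culture.

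Zbtb7b (ENSMUSG00000028042, chromosome 3, 89377644 to 89394776, minus strand) encodes ThPOK, the zinc finger factor that commits thymocytes to the CD4 lineage. In stimulated cells it had 10.3, 7.27 and 9.81 CPM in Batf3 libraries, against 9.82, 8.69 and 8.15 CPM in control libraries. In non-stimulated cells it had 23.3, 23.8 and 21.8 CPM in Batf3 libraries, against 14.2, 12.7 and 15.0 CPM in control libraries. The vectors overlapped in stimulated cells and were apart in non-stimulated cells, where each Batf3 library stood above each control library.

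The vector raised Zbtb7b by 0.71 ± 0.09 in non-stimulated cells (log2 ± SE, edgeR adjusted p = 1.16e-09), while in stimulated cells the difference was 0.04 ± 0.12 (adjusted p = 0.848, 95% interval -0.20 to 0.29). The interaction was -0.67 ± 0.15 (adjusted p = 5.45e-04). Stimulation lowered Zbtb7b under both vectors, with changes of -1.33 ± 0.10 with the Batf3 vector (adjusted p = 8.27e-19) and -0.65 ± 0.11 with the control vector (adjusted p = 3.33e-07). Per length it stood at 1.63, 1.59, 4.10 and 2.50 CPM per kilobase in Batf3 stimulated, control stimulated, Batf3 non-stimulated and control non-stimulated cells, far under Runx3.

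The log2 ratio of Zbtb7b to Runx3, both per length, averaged -3.78 ± 0.227 in Batf3 and -3.40 ± 0.171 in control stimulated cells (SD, n = 3). In non-stimulated cells it averaged -2.92 ± 0.0951 in Batf3 and -3.23 ± 0.124 in control cells. The ratio was lower with Batf3 in stimulated cells, by a difference of -0.39, and higher with Batf3 in non-stimulated cells, by 0.31. In neither culture did the libraries overlap (exact two-sided permutation p = 0.1 each, the smallest possible with n = 3). The ratio restates the values of Zbtb7b and Runx3, and Zbtb7b itself was not called in stimulated cells.

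Cd4, which RUNX factors silence in CD8 T cells, was near the floor. It had 2, 9 and 2 counts in Batf3 stimulated and 1, 6 and 5 counts in control stimulated libraries, and 1, 3 and 3 counts in Batf3 non-stimulated and 5, 0 and 5 counts in control non-stimulated libraries. Cd4 was too low to be tested. The CD4 T cell marker list (Cd4, Cd40lg, Foxp3 and Zbtb7b itself) summed to between 69.1 and 73.5 CPM in Batf3 and 25.1 and 28.3 CPM in control stimulated cells, and to between 34.5 and 36.8 CPM in Batf3 and 13.5 and 16.8 CPM in control non-stimulated cells. The defining marker of that cell type was therefore at or near 0 in all 12 libraries.

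Satb1 (ENSMUSG00000023927, chromosome 17, 51736187 to 51833290, minus strand) had the largest response to stimulation of the 6 genes. It had 49.5, 53.5 and 49.3 CPM in Batf3 stimulated and 44.3, 42.2 and 43.0 CPM in control stimulated libraries. In non-stimulated cells it had 325, 320.1 and 329.8 CPM in Batf3 libraries and 309, 321 and 332 CPM in control libraries. The vectors overlapped in non-stimulated cells, and in stimulated cells the Batf3 libraries stood a little higher without overlap.

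Stimulation changed Satb1 by -2.68 ± 0.05 with the Batf3 vector (log2 ± SE, edgeR adjusted p = 2.05e-56) and by -2.89 ± 0.05 with the control vector (adjusted p = 1.83e-57). The vector raised it by 0.23 ± 0.06 in stimulated cells (adjusted p = 1.10e-04) and gave 0.02 ± 0.04 in non-stimulated cells (adjusted p = 0.691, 95% interval -0.06 to 0.09). The interaction was 0.21 ± 0.07 (adjusted p = 0.00397). Leaving out control stimulated replicate 2 ended that call (0.16, adjusted p = 0.0751), as did leaving out Batf3 stimulated replicate 2 (0.14, adjusted p = 0.113) or the filter on low counts (0.17, adjusted p = 0.054).

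**Figure D3:**
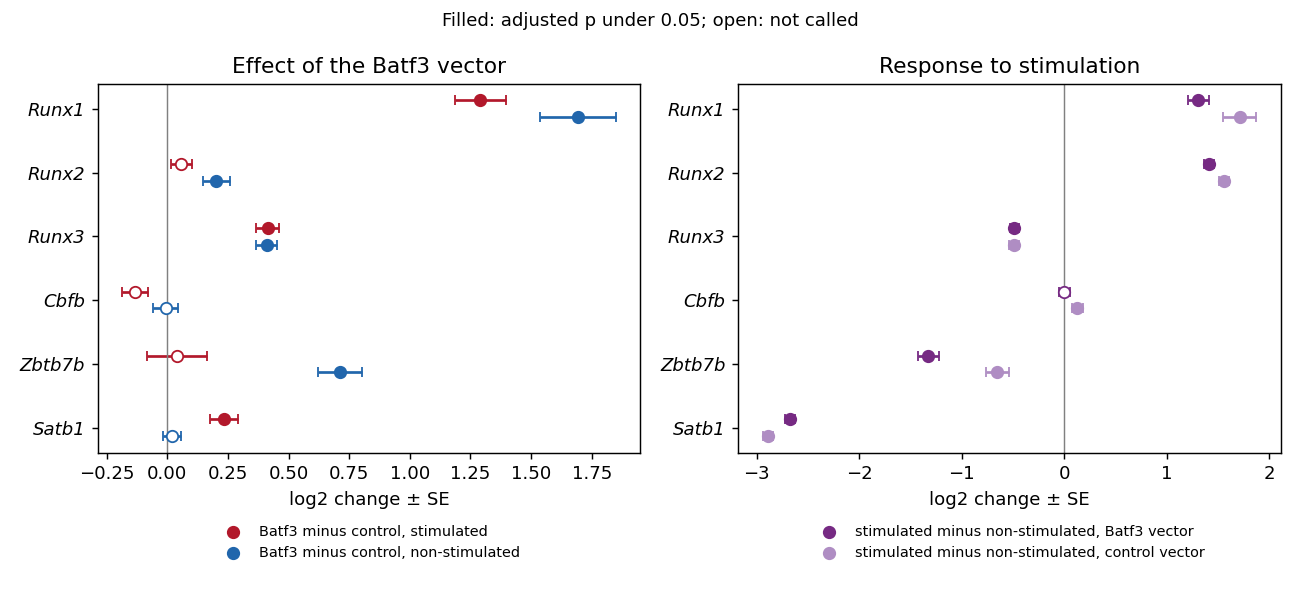
Log2 changes ± SE of the 6 genes from the edgeR fit, for Batf3 minus control in each culture on the left and for stimulated minus non-stimulated cells with each vector on the right, with filled points where the adjusted p was under 0.05. The vector effects on Zbtb7b and on Satb1 differ between cultures, at 0.04 against 0.71 and at 0.23 against 0.02, and the vector effects on Runx3 coincide at 0.41.

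Counted together, with Batf3 in stimulated cells 3 of the 6 genes rose and 0 fell, against 14.8% higher and 14.6% lower among all tested genes. Of the 6, 4 rose and 0 fell in non-stimulated cells, against 16.3% higher and 23% lower among all tested genes. The median log2 change of the 6 genes was 0.15 in stimulated and 0.31 in non-stimulated cells, beside 0.00 and -0.02 over all tested genes. Runx1 was the one gene of the 6 that rose at least 2-fold in either culture, as did 2.45% of all tested genes in stimulated and 2.26% in non-stimulated cells. With library sizes alone, the share of all called genes that were higher moved to 2979 of 4540 in stimulated and 3604 of 6001 in non-stimulated cells, against 2331 of 4631 and 2560 of 6175 here, and no call of the 6 genes for the vector was lost, while Runx2 in stimulated (0.10) and Satb1 in non-stimulated cells (0.093) were called as well.

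Stimulation moved most genes of the cell. With the Batf3 vector 2 of the 6 genes rose and 3 fell, where 41.2% of all tested genes rose and 41.4% fell. With the control vector 3 rose and 3 fell, where 39.6% and 40.7% did. These counts are at the level of the background and say nothing particular of the 6 genes. For the interaction 1 was higher (Satb1) and 1 lower (Zbtb7b), where 14.6% of all tested genes were higher and 6.08% lower. The 5 comparisons share libraries, so their values stand side by side and are not independent.

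Over the 12 libraries, the genes whose log2 CPM ran most like each of the 6 were found among 8014 genes by Pearson's r. Apart from Cbfb, all of the 6 genes changed with stimulation under both vectors, and their r values describe profiles that share this change. St3gal1, a sialyltransferase, was closest to Runx1 (r = 0.993), then Slamf6, a receptor of the SLAM family (0.990), and Rarg, a retinoic acid receptor (0.987). Ehd1, of endocytic recycling, and Rbpj, the DNA-binding partner of Notch, were closest to Runx2 (0.999 each), then Aebp2, a cofactor of Polycomb complexes (0.998). St6gal1, another sialyltransferase, was closest to Runx3 (0.992), then the histone methyltransferase Kmt2a (0.988) and the anchoring protein Akap13 (0.987).

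Kidins220, a membrane scaffold protein, was closest to Zbtb7b (r = 0.983), then Emp1 (0.977) and Phf20l1 (0.976). Satb1 ran closest with the immunity-associated GTPase genes Gimap4 (r = 1.00) and Gimap7 (0.999) and with Samhd1, a dNTP hydrolase (0.999). For Cbfb the closest were mt-Nd3 (0.878) and mt-Nd4 (0.855), mitochondrially encoded subunits of respiratory complex I, and Zfp992 (0.827). Among the 6 genes themselves r was 0.872 for Zbtb7b with Runx3, 0.865 for Zbtb7b with Satb1, and -0.990 for Satb1 with Runx2.

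RUNX factors repress through corepressors of the Groucho/TLE and ETO families and through Sin3a, of which 8 genes were tested. With Batf3, 3 rose and 0 fell in stimulated cells, where 14.8% of all tested genes were higher and 14.6% lower. In non-stimulated cells 3 rose and 1 fell, where 16.3% of all rose and 23% fell. The median was 0.14 and 0.11, beside 0.00 and -0.02 over all tested genes. Tle3 was the most abundant by CPM in every group but control non-stimulated cells, where Tle5 stood a little higher. Tle3 averaged 371 ± 7.11 CPM in Batf3 and 347 ± 9.38 CPM in control stimulated cells (SD, n = 3). In non-stimulated cells Tle3 averaged 252 ± 8.21 CPM in Batf3 and 217 ± 2.51 CPM in control cells. It rose with the vector by 0.10 ± 0.04 and 0.21 ± 0.04 on the log2 scale (SE).

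Tle4 moved in opposite directions in the 2 cultures. It averaged 32.6 ± 1.18 CPM in Batf3 and 23.7 ± 1.63 CPM in control stimulated cells, and 54.3 ± 2.39 CPM in Batf3 and 72.2 ± 2.80 CPM in control non-stimulated cells. Its vector effect was 0.46 ± 0.07 in stimulated and -0.41 ± 0.05 in non-stimulated cells, and the interaction of 0.87 ± 0.09 was called (edgeR adjusted p = 1.15e-12). Tle1 rose by 0.36 ± 0.12 and 0.32 ± 0.11, and Tle2, at 1.64 CPM or less in every group mean, by 1.00 ± 0.38 in non-stimulated cells. Tle5, a short TLE protein that lacks the repeats with which others bind their partners, fell with stimulation to 19.0 ± 1.72 CPM in Batf3 and 20.5 ± 1.78 CPM in control cells, against 219 CPM in non-stimulated cells with either vector. With the control vector, 2 of the 8 rose with stimulation and 5 fell, where 39.6% of all tested genes rose and 40.7% fell. Among those that fell was Cbfa2t3, at 0.127 ± 0.0879 CPM in stimulated and 2.59 ± 0.289 CPM in non-stimulated cells.

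Genes that RUNX factors repress in T cells, Zbtb7b among them, moved in both directions with Batf3. Of 6 tested, 3 rose and 1 fell in stimulated cells (14.8% and 14.6% of all tested genes did), and 3 rose and 1 fell in non-stimulated cells (16.3% and 23% of all). The medians were 0.31 and 0.48, beside 0.00 and -0.02 over all tested genes. Klf2 encodes the factor that drives S1pr1, the receptor for egress from lymphoid tissue. S1pr1 averaged 4.17 ± 0.537 CPM in Batf3 and 2.95 ± 0.392 CPM in control stimulated cells, and 279 ± 9.55 CPM in Batf3 and 157 ± 3.75 CPM in control non-stimulated cells. It rose by 0.50 ± 0.18 and 0.83 ± 0.04, and Klf2 by 0.38 ± 0.11 and 0.70 ± 0.04.

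Bcl6, the repressor of follicular helper cells, rose with Batf3 by 0.83 ± 0.08 in stimulated cells, at 32.9 ± 0.712 CPM in Batf3 and 18.5 ± 2.41 CPM in control cells. In non-stimulated cells its change was 0.07 ± 0.10, and the interaction of 0.76 ± 0.12 was called (edgeR adjusted p = 2.24e-06). Tcf7, which encodes TCF-1, fell by 0.77 and 0.20 on the log2 scale, to 39.1 ± 1.04 CPM in Batf3, against 66.8 ± 1.80 CPM in control stimulated cells, and to 220.5 ± 0.618 CPM in Batf3, against 253 ± 6.55 CPM in control non-stimulated cells. Il4, like Cd4, was too low to be tested, with at most 4 counts in a library.

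Genes that RUNX3 activates in CD8 T cells moved in both directions. Of 7 tested, 4 rose and 2 fell with Batf3 in stimulated cells, beside 14.8% and 14.6% of all tested genes, and 3 rose and 3 fell in non-stimulated cells, beside 16.3% and 23% of all. Their medians were 0.30 and 0.12, against 0.00 and -0.02 over all tested genes. Prf1, which encodes perforin, averaged 160.3 ± 1.94 CPM in Batf3 and 93.6 ± 2.75 CPM in control stimulated cells, and 15.8 ± 1.23 CPM in Batf3 and 11.03 ± 0.322 CPM in control non-stimulated cells. It rose by 0.78 ± 0.05 and 0.52 ± 0.09, and Ccl5, a chemokine of memory CD8 T cells, rose by 0.47 ± 0.03 and 0.65 ± 0.04. Itgae, which encodes the residency integrin CD103, rose by 0.58 ± 0.09 in non-stimulated cells, at 21.1 ± 0.241 CPM in Batf3 and 14.1 ± 0.534 CPM in control cells.

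Against these, Eomes, a T-box factor of memory cells, changed by -0.19 ± 0.06 in stimulated and -1.12 ± 0.04 in non-stimulated cells, where it averaged 151 ± 2.01 CPM in Batf3 and 329 ± 5.47 CPM in control cells. Gzmb, the gene of granzyme B, changed by 0.30 ± 0.03 in stimulated and -0.63 ± 0.03 in non-stimulated cells. Granzyme genes are near-identical in places, and how reads with several matches were counted is not given in the sources used here, so values of Gzmb are uncertain to that extent. Ifng changed by -0.15 ± 0.03 in stimulated cells.

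The CD8 coreceptor chains are markers of the cytotoxic lineage, and in non-stimulated cells their genes moved in opposite directions. Cd8a averaged 622 ± 21.8 CPM in Batf3 and 555 ± 4.21 CPM in control stimulated cells, and 652 ± 10.3 CPM in Batf3 and 748 ± 5.55 CPM in control non-stimulated cells. Its vector effect was 0.17 ± 0.03 in stimulated and -0.20 ± 0.03 in non-stimulated cells, while Cd8b1 rose by 0.21 ± 0.04 in both. Patz1, which encodes MAZR, a partner of RUNX factors in repressing Zbtb7b, changed by -0.33 ± 0.07 in non-stimulated cells, with 23.2 ± 0.666 CPM in Batf3 and 29.1 ± 3.24 CPM in control cells (edgeR adjusted p = 1.81e-04). In stimulated cells Patz1 changed by -0.10 ± 0.10 (adjusted p = 0.467). Over the 12 cytotoxic lineage genes, 5 rose and 3 fell with Batf3 in stimulated cells, set against 14.8% and 14.6% of all tested genes. In non-stimulated cells 4 of them rose and 7 fell, set against 16.3% and 23% of all. Crtam changed by -0.31 ± 0.03 in stimulated and -1.31 ± 0.13 in non-stimulated cells, with a called interaction of 1.01 ± 0.14. Cd244a changed by -0.84 ± 0.13 in non-stimulated cells. Cd8a, Itgae, Eomes, Prf1, Gzmb and Ifng are also in the list of genes that RUNX3 activates, so the counts of these lists are not separate results.

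Of 12 tested upstream regulators of Zbtb7b and of the helper lineage, 8 rose and 2 fell with Batf3 in stimulated cells, where 14.8% of all tested genes were higher and 14.6% lower. In non-stimulated cells 2 rose and 4 fell, where 16.3% of all rose and 23% fell. The median change was 0.42 in stimulated and -0.04 in non-stimulated cells, beside 0.00 and -0.02 over all tested genes. The interaction was called above 0 for 7 of the 12 and below 0 for 1, beside 14.6% and 6.08% of all tested genes. Gata3, which acts ahead of Zbtb7b in CD4 commitment, averaged 41.2 ± 2.33 CPM in Batf3 and 20.9 ± 1.80 CPM in control stimulated cells, and 51.6 ± 1.98 CPM in Batf3 and 31.6 ± 0.330 CPM in control non-stimulated cells. It rose by 0.98 ± 0.07 and 0.71 ± 0.06 (edgeR adjusted p = 1.1e-18 and 1.09e-15). Gata3 thus rose in both cultures, and Zbtb7b in non-stimulated cells.

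Tox, needed for CD4 commitment, was at low levels and rose in stimulated cells, at 1.51 ± 0.4995 CPM in Batf3 and 0.508 ± 0.116 CPM in control cells (log2 change 1.55 ± 0.43). Bcl11b rose by 0.60 ± 0.06 and Egr2 by 0.73 ± 0.04 in stimulated cells. Lef1, the sister gene of Tcf7, rose by 0.36 ± 0.06 and 0.37 ± 0.05 in the 2 cultures, against the direction of Tcf7. Zbtb7a, the gene closest in sequence family to Zbtb7b, changed by 0.02 ± 0.05 in stimulated cells and 0.00 ± 0.05 in non-stimulated cells.

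Genes of CD4 T cells rose or were not called. Of 6 tested, 5 rose with Batf3 in stimulated cells (14.8% of all tested genes did) and 3 in non-stimulated cells (16.3% of all), and 0 fell in either, where 14.6% and 23% of all fell. The medians were 1.84 and 0.53, with 0.00 and -0.02 over all tested genes. This list, like the others, was chosen with earlier results of these data known, so its counts beside the background are a description and no test. Cd40lg, the helper ligand of B cells, averaged 56.6 ± 0.846 CPM in Batf3 and 16.9 ± 0.854 CPM in control stimulated cells, and 1.05 ± 0.0387 CPM in Batf3 and 0.376 ± 0.0378 CPM in control non-stimulated cells. Icos, a costimulatory receptor, rose by 2.04 ± 0.07 and 0.79 ± 0.05. Il21 had 2.08 ± 0.331 CPM in Batf3 and 0.533 ± 0.153 CPM in control stimulated cells, and was at 0 in non-stimulated cells.

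Foxp3, the factor of regulatory T cells, had 5.68 ± 1.32 CPM in Batf3 and 1.12 ± 0.440 CPM in control stimulated cells, and 11.8 ± 0.384 CPM in Batf3 and 0.619 ± 0.326 CPM in control non-stimulated cells. Its vector effects were 2.34 ± 0.27 and 4.23 ± 0.32 on the log2 scale, and the interaction of -1.90 ± 0.42 was called in the same direction as that of Zbtb7b (edgeR adjusted p = 2.82e-04).

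**Figure D4:**
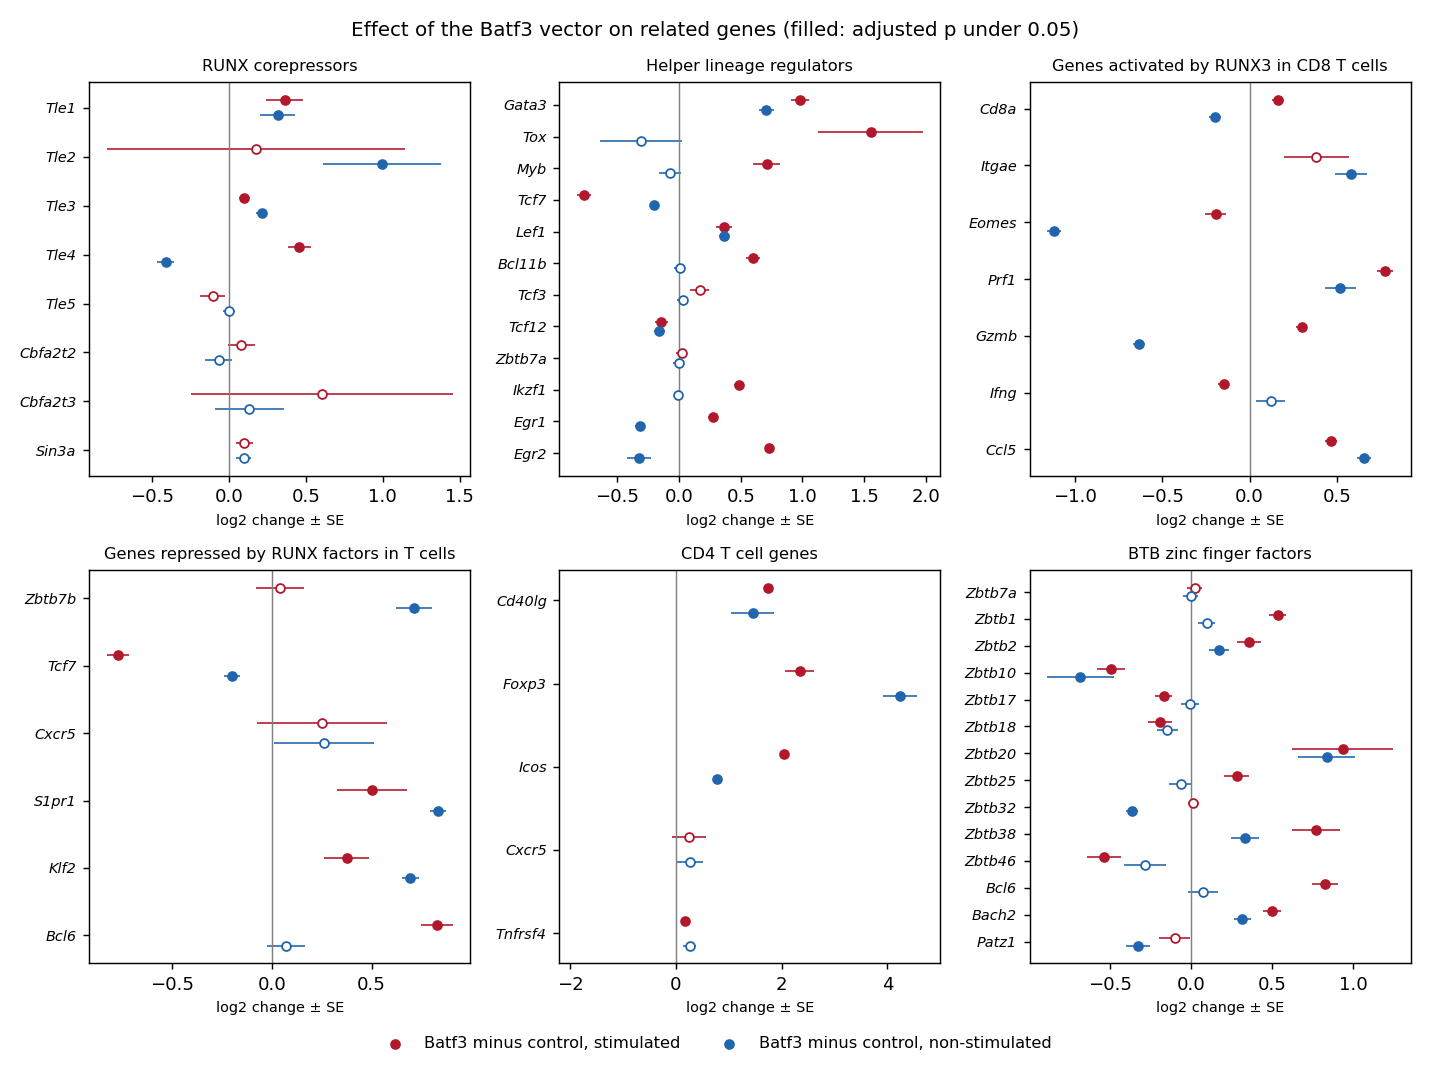
Log2 changes ± SE, Batf3 minus control, of genes in 6 lists related to the RUNX factors and ThPOK, in stimulated and non-stimulated cells, with filled points where the adjusted p was under 0.05 and Il21 left out because its SE is undefined. Tle4, Gzmb, Cd8a, Egr1 and Egr2 lie on opposite sides of 0 in the 2 cultures, while Foxp3, Cd40lg and Icos lie above 0 in both.

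Among 14 tested BTB zinc finger factors, the wider family of ThPOK, 7 rose and 4 fell with Batf3 in stimulated cells (14.8% and 14.6% of all tested genes), and 4 rose and 3 fell in non-stimulated cells (16.3% and 23% of all). Zbtb20 rose by 0.94 ± 0.31 and 0.84 ± 0.18, and Zbtb38 by 0.77 ± 0.15 and 0.33 ± 0.09. Bach2, a repressor that holds back effector differentiation, rose by 0.50 ± 0.05 and 0.32 ± 0.05. Zbtb10 changed by -0.50 ± 0.09 and -0.68 ± 0.21, and Zbtb32, a brake on proliferation, by -0.37 ± 0.04 in non-stimulated cells. Unlike Zbtb7b, which had an interaction below 0, the 4 of these 14 factors with a called interaction were above it, Bcl6, Zbtb1 and Zbtb32 the furthest at 0.76, 0.44 and 0.38. Of all tested genes 14.6% had a called interaction above 0 and 6.08% below it.

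Of the genes under SATB1, 5 of 9 could be tested. Pdcd1, which SATB1 restrains, averaged 236 ± 9.26 CPM in Batf3 and 192 ± 2.96 CPM in control stimulated cells, and 17.1 ± 1.26 CPM in Batf3 and 13 ± 1.02 CPM in control non-stimulated cells. Pdcd1 rose with the vector by 0.30 ± 0.04 and 0.39 ± 0.09, where Satb1 changed by 0.23 ± 0.06 and 0.02 ± 0.04. With stimulation, where Satb1 fell, Pdcd1 rose by 3.79 ± 0.06 with the Batf3 vector and 3.89 ± 0.07 with the control vector. Any part of Satb1 in these changes was not tested. Il2ra, the alpha chain of the IL-2 receptor, changed by -0.06 ± 0.03 in stimulated and 0.34 ± 0.04 in non-stimulated cells. Il13 had 25.4 ± 0.255 CPM in Batf3 and 5.76 ± 0.634 CPM in control stimulated cells.

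Chromatin factors tied to Cd4 silencing or to DNA methylation were also measured. The list pools DNA methyltransferases with Tet1, Tet2 and Tet3, oxidases of methylated cytosine, so its counts have no single direction of action. Of 9 tested, 6 rose and 1 fell with Batf3 in stimulated cells, against 14.8% and 14.6% of all tested genes, and 2 rose and 2 fell in non-stimulated cells, against 16.3% and 23% of all. Dnmt1, the maintenance DNA methyltransferase, averaged 118 ± 1.52 CPM in Batf3 and 79.2 ± 4.27 CPM in control stimulated cells, a change of 0.57 ± 0.05, and gave -0.03 ± 0.04 in non-stimulated cells. Uhrf1, which guides Dnmt1 to newly copied DNA, changed by 0.43 ± 0.05 and -0.13 ± 0.04. Tet3, an oxidase of methylated cytosine, rose in both cultures by 0.50 ± 0.04 and 0.41 ± 0.05, and Dnmt3a fell in both by 0.14 and 0.15 on the log2 scale.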

How the data were processed

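RNA-seq of 12 libraries was used. The deposited read counts per Ensembl gene are whole numbers that, per the submitters' processing notes, the authors made with STAR 2.7 (build GRCm38) and featureCounts. Per the labels' protocols, poly-A RNA was prepared with a stranded kit. For the annotation release, the strand and multi-mapping reads, settings were not given in the sources used here. Genes on the other strand overlap exons of Runx1 (106 bases), Runx2 (519 bases), Zbtb7b (116 bases) and Satb1 (128 bases). They had 6, 314, 39 and 29 counts in all libraries, against 1815, 15201, 2429 and 33501 counts of those 4 genes. On the same strand, Gm36931 overlaps Satb1 exons by 156 bases and had 49 counts.

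Counts were fitted in R 4.3.3 with edgeR 4.0.16 (TMM, filterByExpr defaults, robust quasi-likelihood, 4 group means, 8 residual degrees of freedom). The filter left 15702 genes, all 6 described genes among them. Tests were two-sided, Benjamini-Hochberg adjustment ran over all tested genes, and calls were made at an adjusted p under 0.05. The procedure was tested on simulated data. Log2 changes carry the SE of the fit, and the SEs cover counting error at least. The SEs and intervals carry a lower limit on the spread that the test did not use. A call can thus be stronger than its SE implies. Exon lengths and coordinates are from GENCODE M21 and promoter sequences from RefSeq (GRCm38.p6).

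Alternatives were RLE factors, library sizes alone, DESeq2 1.42.0, no filter or a stricter filter, the replicate number as a block, only the 2 groups compared, and each library left out. Named genes were the 6 genes, 12 genes always given (Cd4, Cd8a, Cd8b1, Patz1, Zbtb7a, Gata3, Tox, Bcl11b, Batf3, Itgae, Il4 and Tcf7) and, from each list and contrast, up to 3 called genes per direction at 1 CPM or more. Genes compared for likeness had a mean of at least 10 CPM. The 6 genes and the lists were chosen with earlier results of these data known. Floors reflect counting error alone, because PCR copies without molecular identifiers are not separate molecules.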

Additional observations from a re-analysis of the deposited data

Results flagged for a closer look

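The effect of the Batf3 vector on Zbtb7b differed between cultures by an interaction of -0.67 ± 0.15 on the log2 scale (SE, n = 3 libraries per group, edgeR adjusted p = 5.45e-04), being 0.04 in stimulated and 0.71 in non-stimulated cells. It kept its direction and its call under all 18 alternatives, between -0.80 and -0.57.

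The effect on Satb1 differed by an interaction of 0.21 ± 0.07 (edgeR adjusted p = 0.00397), being 0.23 in stimulated and 0.02 in non-stimulated cells, and this call was lost under 3 of 18 alternatives, with 0.14 as the lowest value.

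The log2 ratio of Zbtb7b to Runx3 was lower with Batf3 in every stimulated library (-0.39) and higher in every non-stimulated library (0.31), so that the effects differ by -0.69 between cultures. This difference of the ratio was not tested. The ratio is made from Zbtb7b and Runx3 and is no result separate from theirs. Runx3 rose by 0.41 in both cultures, and Zbtb7b changed by 0.04 in stimulated and 0.71 in non-stimulated cells. The tested interaction of Zbtb7b was -0.67.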

How the results depend on the processing

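Of 564 values of the 6 genes under alternative settings, 494 kept their direction and their side of the threshold, 8 lost a call, 21 gained one and 41 turned round, in 6 results. In 39 of the 41 neither value was called. Cbfb on stimulation was -0.058 with the control vector (adjusted p = 0.287, called as higher in the fit of the report) and -0.212 with the Batf3 vector (adjusted p = 4.98e-04, 0.0027 and not called in that fit) with library sizes alone. With the Batf3 vector it was also -0.044 with no filter and -0.020 with the stricter one. For the Batf3 vector in non-stimulated cells, Cbfb (-0.0073) was 0.068 with library sizes alone, 0.0076 with no filter, 0.028 with the stricter filter and 0.024 with only the 2 groups compared. The Runx3 interaction (0.0046) was -0.0090 with RLE factors and with DESeq2, -0.024 with library sizes alone, -0.039 with no filter and -0.023 with the stricter filter. With 1 library left out, Cbfb lay between -0.072 and 0.045 on stimulation with Batf3 and between -0.049 and 0.046 for the vector in non-stimulated cells, the Runx3 interaction between -0.049 and 0.026, the vector effect on Zbtb7b in stimulated cells between -0.063 and 0.172, and that on Satb1 in non-stimulated cells between -0.011 and 0.045. That scaling moved the median log2 change of all genes to -0.20 for stimulation with the Batf3 vector and -0.19 with the control vector. The counts of called genes stayed within 1.5 times under every alternative run. With the replicate block, the counts were 4510, 6059, 12947, 12561 and 3176 genes for the vector in stimulated and in non-stimulated cells, stimulation with Batf3 and with control, and the interaction, and the block changed no call of the 6 genes but that of Cbfb on stimulation of control cells. Libraries with the same replicate number did not deviate together (18 pairs, r between -0.14 and 0.07), so the numbers were not taken to pair libraries. The difference in the Runx1 share, 2.35 percentage points in stimulated and 1.18 in non-stimulated cells per exon length, was 4.19 and 2.48 with CPM in place of per-length values, and 3.52 and 1.84 with the longest coding transcript, a setting chosen after seeing the data. The Runx2 interaction was called under 5 of 18 alternatives and that of Cbfb under 4. Depth limits Runx1, whose counting error in control non-stimulated cells was 15.4% of its level per library, and Cd4 and Il4, which were too low to test.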

Other observations

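Other annotated genes that overlap the 6 genes each had fewer counts than the gene they overlap. The largest sum over the 12 libraries was 1739 counts for Supt3, against 15201 counts for Runx2. Supt3 encodes a subunit of transcription coactivator complexes and overlaps the Runx2 locus on the other strand. Gm16224, an antisense gene in Runx3, had 126 counts in all, against 20401 for Runx3.

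Beside the ETO family gene Cbfa2t2, which rose with stimulation by 0.35 ± 0.09 with the Batf3 vector and 0.20 ± 0.09 with the control vector (log2 ± SE, edgeR), its relative Cbfa2t3 had at most 3 counts in any stimulated library, with means of 0.198 CPM in Batf3 and 0.127 CPM in control cells.

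Zbtb16, which encodes PLZF, a BTB factor of innate-like T cells, was too low to test and had means of 0.0247 CPM in Batf3 and 0 CPM in control stimulated cells, and 0.384 CPM in Batf3 and 0.133 CPM in control non-stimulated cells. Rag1 had means of 2.49 CPM in Batf3 and 2.16 CPM in control stimulated cells, and 0.0855 CPM in Batf3 and 0.133 CPM in control non-stimulated cells, while Rag2 was at 0 in all 12 libraries.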
